A study of Arabidopsis thaliana with 4 samples.

Results

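The genes described here are 10 WRKY transcription factor genes of *Arabidopsis thaliana* with known roles in stress and defence, namely *WRKY18*, *WRKY25*, *WRKY33*, *WRKY40*, *WRKY46*, *WRKY53*, *WRKY54*, *WRKY60*, *WRKY70* and *WRKY75*. They were chosen by locus, so that every gene probe whose RefSeq accession belonged to 1 of these loci was taken. They make up 10 of the 34290 genes and transcripts tested, of which 25410 carried a locus name, and all 10 had a probe. Transcript levels were compared between *bli-1*, a mutant of *BLISTER* (*BLI*), and the Columbia-0 (Col-0) wild type. BLI is a plant protein that binds the Polycomb group protein CURLY LEAF, and the study asked which genes depend on it. The *bli-1* plants carry the T-DNA insertion SAIL_107_D04 and stand for 1 insertion line, and Col-0 is the accession without an insertion in *BLI*. Both genotypes were grown for 12 days in continuous light on the same medium without any treatment, RNA was taken from whole seedlings, and each of the 2 replicates per genotype was hybridised to a single color Agilent array of its own. The general growth methods state that *bli* seeds, which germinate late, were given a head start in sowing where genotypes were set side by side. The methods of the arrays do not repeat this. Nothing in the labels says whether the replicates came from separate plates or sowings, so the p-values measure only the spread between these samples.

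WRKY proteins are a plant family of DNA-binding transcription factors, named after the amino acids that open their conserved domain. Most of them bind the W-box, a short promoter element that is frequent in genes induced by pathogens, wounding or abiotic stress, and many WRKY genes carry W-boxes themselves and are controlled by other WRKY factors. The family is divided by the number of WRKY domains and the type of zinc finger into group I, group II with subgroups a to e, and group III. In *Arabidopsis* leaves, perception of microbial patterns activates MAP kinases that phosphorylate group I factors such as WRKY33, while several group III factors act in the salicylic acid pathway and in leaf senescence.

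Of the 10 genes, 3 belong to subgroup IIa (*WRKY18*, *WRKY40* and *WRKY60*), 2 to group I (*WRKY25* and *WRKY33*), 1 to subgroup IIc (*WRKY75*) and 4 to group III (*WRKY46*, *WRKY53*, *WRKY54* and *WRKY70*). Their loci lie on all 5 chromosomes, 5 of them on chromosome 2. The 3 genes of subgroup IIa were 2.02- to 2.85-fold higher in *bli-1* than in Col-0, both genes of group I and *WRKY75* were 1.58- to 1.82-fold higher, and the 4 genes of group III lay between 1.27-fold higher and 1.35-fold lower. None of the 10 was called differentially expressed, which required at least a 1.5-fold change and a p below 0.05 from limma after Benjamini-Hochberg adjustment, so that every fold change below is a measured value and not a call.

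*BLI* itself (AT3G23980, chromosome 3) had normalized log2 signals of 9.17 and 8.99 in Col-0 replicates 1 and 2, and of 7.38 and 7.68 in *bli-1* replicates 1 and 2. Both *bli-1* arrays lay below both Col-0 arrays, the means differing by -1.55 on the log2 scale (standard error, SE, 0.16, limma adjusted p = 0.0823). The probes of *BLI* differed, with a log2 fold change of -2.67 (SE 0.27) for one and of -0.42 (SE 0.18) for the other, and the first was not well above background in *bli-1* replicate 1. Where either probe lies relative to the insertion was not looked up, so *BLI* is only a rough check of the genotypes.

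Over all arrays, 28 loci passed as higher (0.11% of those tested) and 6 as lower (0.0236%) in *bli-1*. The study listed far more genes in each direction, at a 1.5-fold change and a p-value below 0.05. Its methods also name a Benjamini-Hochberg adjustment. The calls given here are therefore not those of the study, and the reason for the difference was not tested. Between 74.7% and 91.7% of the gene spots were well above background, and the highest share was that of *bli-1* replicate 2. The median intensity of the gene spots before normalization was 139.5 and 187 in Col-0 against 208 and 319 in *bli-1*. Both Col-0 arrays and *bli-1* replicate 2 lay on 1 slide and *bli-1* replicate 1 on another, so that slide and *bli-1* replicate cannot be told apart. The precision of every value is limited by the 4 arrays, since 2 against 2 gives an exact permutation test no two-sided p under 0.333. Of 6 genes with high expression in the shoot, 6 were well above background on all 4 arrays, as were 8 of 8 genes expressed in the root, so that both organs were represented.

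Of the 10 WRKY genes, 5 had more than 1 probe, while *WRKY25*, *WRKY33*, *WRKY54*, *WRKY60* and *WRKY70* rest on 1 probe each. All 15 probes of the 10 WRKY genes were well above background on all 4 arrays, and none was saturated or marked as an outlier. Their local background was 15 to 26 intensity units, while the dimmest probe, 1 of 2 for *WRKY53*, had a raw intensity of 63 in Col-0 replicate 1. Values are given from here on as normalized log2 signals, for which the background was corrected with an offset of 50, the arrays were brought to the same distribution, and the probes of a gene were averaged. The offset shrinks the fold changes of dim genes, and raw intensities also hold the difference in overall brightness between the arrays. Array signals of different genes depend on their probes and are therefore not ranked against each other.

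**Figure D1:**
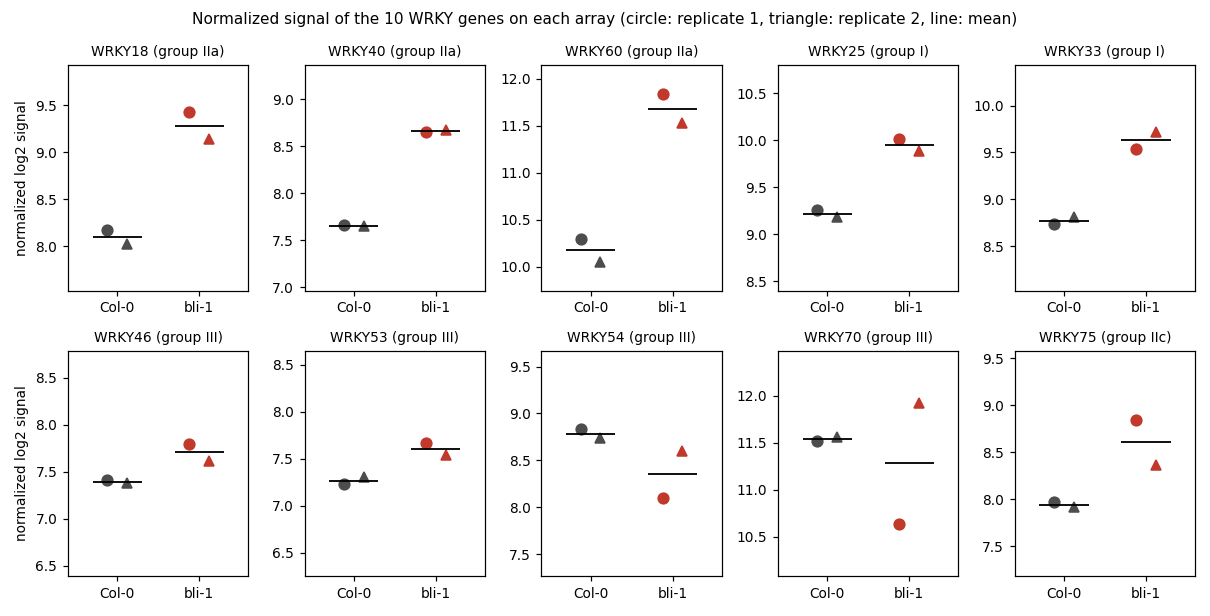
Normalized log2 signal (y axis) of each of the 10 WRKY genes on the 2 Col-0 and 2 *bli-1* arrays (x axis), with circles for replicate 1, triangles for replicate 2 and lines for the genotype means; every panel spans the same range of log2 units. Both *bli-1* arrays lay above both Col-0 arrays for 8 genes and below for *WRKY54*, while the *bli-1* replicates of *WRKY70* fell on either side of Col-0.

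WRKY18, WRKY40 and WRKY60 form dimers with themselves and with each other through a leucine zipper. They act partly redundantly, limit defence responses and also take part in responses to abscisic acid. *WRKY60* (AT2G25000, chromosome 2) had the highest fold change of the 10 genes when probes were averaged, whereas with the brightest probe of each gene *WRKY18* was at 1.52 and *WRKY60* at 1.51 on the log2 scale. Its raw intensity was 826 and 1041 units in Col-0 replicates 1 and 2, against 4171 and 3551.5 in *bli-1* replicates 1 and 2. After normalization the log2 signal was 10.29 and 10.05 in Col-0 against 11.83 and 11.53 in *bli-1*. Both mutant arrays were thus brighter than both wild type arrays before and after normalization. The log2 fold change was 1.51 (2.85-fold, SE 0.17, limma adjusted p = 0.0973), beside 0.30 log2 units between the *bli-1* replicates.

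*WRKY18* (AT4G31800, chromosome 4) had log2 signals of 8.18 and 8.02 in Col-0 against 9.43 and 9.14 in *bli-1*. The groups did not overlap, and the log2 fold change was 1.18 (2.27-fold, SE 0.16, limma adjusted p = 0.119). This gene had a pair of probes, which moved in the same direction by unequal amounts. The brighter probe had raw intensities of 258 and 348 in Col-0 against 1450 and 1269 in *bli-1*, giving a log2 fold change of 1.52 (SE 0.16). The dimmer probe had raw intensities of 105 and 102 in Col-0 against 336.5 and 371 in *bli-1*, giving a log2 fold change of 0.84 (SE 0.17).

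*WRKY40* (AT1G80840, chromosome 1), which is quickly induced by microbial patterns and wounding, had the closest replicates of the 10 genes. Its log2 signal was 7.66 and 7.65 in Col-0 against 8.66 and 8.68 in *bli-1*. The replicates of either genotype lay 0.02 log2 units apart, against a log2 fold change of 1.01 (2.02-fold, SE 0.12, limma adjusted p = 0.103). Both of its probes were higher in *bli-1*, by 0.89 (SE 0.13) and 1.13 (SE 0.14) on the log2 scale. The standard errors of limma borrow from the spread of all genes, which is why that of *WRKY40* is larger than its own replicates would give.

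WRKY33 is a substrate of the pathogen-activated MAP kinases, controls the synthesis of the phytoalexin camalexin and is needed for resistance to necrotrophic fungi, and WRKY25 is its close relative in group I with a role in heat and salt tolerance. *WRKY33* (AT2G38470, chromosome 2) had log2 signals of 8.73 and 8.81 in Col-0 against 9.54 and 9.72 in *bli-1*. Its groups did not overlap, and the log2 fold change was 0.86 (1.82-fold, SE 0.14, limma adjusted p = 0.154). *WRKY25* (AT2G30250, chromosome 2) had log2 signals of 9.26 and 9.18 in Col-0 against 10.02 and 9.88 in *bli-1*. Here, too, both *bli-1* arrays were higher, with a log2 fold change of 0.73 (1.66-fold, SE 0.13, limma adjusted p = 0.184). The gap between the *bli-1* replicates was 0.18 log2 units for *WRKY33* and 0.13 for *WRKY25*, in opposite directions. *WRKY33* was higher in replicate 2 and *WRKY25* in replicate 1.

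WRKY75 is known from phosphate starvation, root hair development and leaf senescence. *WRKY75* (AT5G13080, chromosome 5) had log2 signals of 7.97 and 7.92 in Col-0 against 8.85 and 8.37 in *bli-1*. Both *bli-1* arrays were above Col-0, although replicate 1 exceeded the Col-0 mean by 0.90 and replicate 2 by only 0.42 on the log2 scale. The log2 fold change was 0.66 (1.58-fold, SE 0.20, limma adjusted p = 0.374), and its probes gave 0.84 (SE 0.18) and 0.48 (SE 0.23). Without *bli-1* replicate 1 the value was 0.40, which is under 1.5-fold.

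Group III gave no such pattern with the processing used here. WRKY46 and WRKY53 are early factors of the salicylic acid response, and WRKY53 promotes leaf senescence. *WRKY46* (AT2G46400, chromosome 2) had log2 signals of 7.41 and 7.38 in Col-0 against 7.80 and 7.61 in *bli-1*, giving a log2 fold change of 0.31 (SE 0.13, limma adjusted p = 0.547). *WRKY53* (AT4G23810, chromosome 4) had log2 signals of 7.23 and 7.30 in Col-0 against 7.67 and 7.54 in *bli-1*, giving a log2 fold change of 0.34 (SE 0.13, limma adjusted p = 0.485). Both genes were higher on both *bli-1* arrays but by less than 1.5-fold. Their probes were dim, and the offset shrinks the fold changes of dim genes. With the scanner software's processed signal and quantile normalization, *WRKY46* was at 0.51 and *WRKY53* at 0.62, beside 0.78 for *WRKY25* and 0.85 for *WRKY33*. With that signal scaled to the 75th percentile *WRKY46* and *WRKY53* were at 0.86 and 1.05, where the median of all loci was 0.18. There *WRKY25* was at 0.80 and *WRKY33* at 0.87, so *WRKY46* and *WRKY53* were not set apart from these group I genes. The contrast between these pairs thus depended on the processing. The probes of *WRKY53* disagreed in size, with log2 fold changes of 0.04 (SE 0.25) and 0.65 (SE 0.17). They read 7.19 and 7.27 in Col-0 replicate 1, 7.37 and 7.23 in Col-0 replicate 2 and 7.64 and 7.71 in *bli-1* replicate 1, and only in *bli-1* replicate 2, with 7.0 and 8.09, did they part.

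WRKY54 and WRKY70 are related factors that act together as negative regulators of leaf senescence, and WRKY70 links the salicylic and jasmonic acid pathways. *WRKY54* (AT2G40750, chromosome 2) was the only 1 of the 10 genes that was lower on both *bli-1* arrays, with log2 signals of 8.84 and 8.74 in Col-0 against 8.10 and 8.61 in *bli-1*. Its log2 fold change was -0.43 (1.35-fold lower, SE 0.21, limma adjusted p = 0.579), which was less than the 0.51 log2 units between the *bli-1* replicates. It was -0.17 without *bli-1* replicate 1 and -0.72, over 1.5-fold, without *bli-1* replicate 2. Before normalization *WRKY54* did not separate the genotypes, since its raw intensities were 283 and 369 in Col-0 against 239 and 475.5 in *bli-1*.

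*WRKY70* (AT3G56400, chromosome 3) was the least reproducible gene of the 10. Its log2 signal was 11.51 and 11.56 in Col-0, 10.63 in *bli-1* replicate 1 and 11.92 in *bli-1* replicate 2. The mutant replicates lay 1.29 log2 units apart, one below and one above the wild type, and the Col-0 replicates 0.05 apart. The *bli-1* replicates also lay on either side of Col-0 in the raw intensities, which were 1975 and 3080 in Col-0 against 1771 and 4623.5 in *bli-1*. The fitted difference of -0.26 log2 units (SE 0.43, limma adjusted p = 0.825) therefore gives no direction for *WRKY70*. Without *bli-1* replicate 1 it was 0.39, and without *bli-1* replicate 2 it was -0.91.

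**Figure D2:**
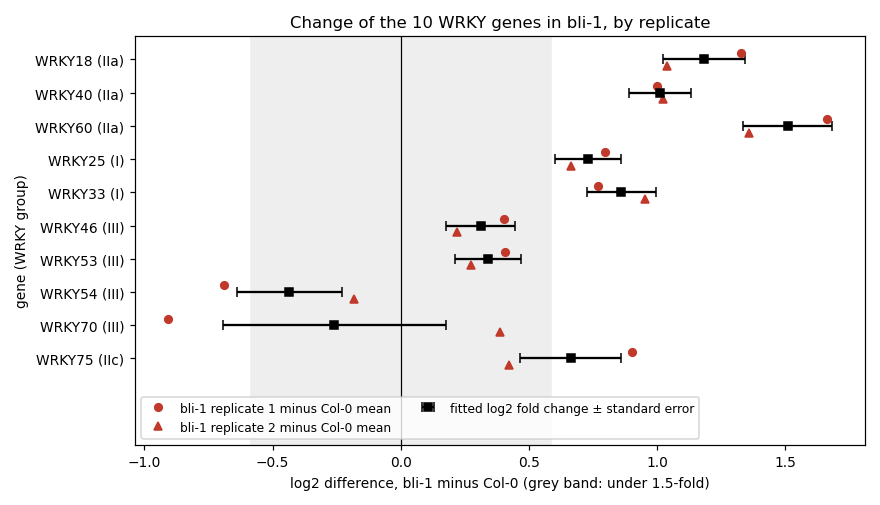
Log2 difference of *bli-1* from Col-0 (x axis) for the 10 WRKY genes (y axis, with WRKY group), as the fitted value with its standard error (squares and bars) and for each *bli-1* replicate against the Col-0 mean (circles and triangles). The replicates of *WRKY40* nearly coincide, with a fitted value of 1.01, while those of *WRKY70* lie at -0.91 and 0.39.

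Across the 10 genes the median log2 fold change was 0.70, beside -0.00 over all loci. It was 0.78 for *bli-1* replicate 1 and 0.54 for replicate 2, each against the Col-0 mean. The change was above 0 for 8 of the 10 genes, as it was for 49.3% of all loci. At least a 1.5-fold higher signal was found for 6 of the 10 genes, and 4.93% of all loci reached this fold, or 4.62% of the loci that, like the 10, exceeded background on every array. A further 3.83% of all loci were at least 1.5-fold lower, and none of the 10 genes was. The *bli-1* arrays lay above both Col-0 arrays without overlap for 8 of the 10 genes, where 22.7% of all loci and 23% of those equally bright did so, and below for 1 gene, where 24.1% did. At an unadjusted p below 0.05 and at least 1.5-fold, 6 genes were higher and 0 lower, against 3.01% and 2.98% of all loci. The 6 were *WRKY18*, *WRKY25*, *WRKY33*, *WRKY40*, *WRKY60* and *WRKY75*. *WRKY53* also had an unadjusted p below 0.05, but not the fold change. Because the 10 genes were chosen with earlier results of these arrays known, these counts are a description without a test of the set.

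The replicate gap of the 10 genes was near that of the whole array in both genotypes. Its median was 0.07 log2 units in Col-0, where all loci had 0.11, and 0.24 in *bli-1*, where all loci had 0.21. The gap between the *bli-1* replicates was smaller than the change between genotypes for 8 of the 10 genes. The exceptions were *WRKY54* and *WRKY70*, both of group III. Of the 8 genes that were higher in *bli-1*, *WRKY33* and *WRKY40* were higher in replicate 2 and the other 6 were higher in replicate 1.

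A comparison within the slide that held both genotypes used *bli-1* replicate 2 alone against both Col-0 arrays. With the slide as a block, 5 of the 10 genes were called higher and 0 lower by limma. These were *WRKY60* (log2 fold change 1.36, adjusted p = 0.00143), *WRKY18* (log2 fold change 1.04, adjusted p = 0.00265), *WRKY40* (log2 fold change 1.02, adjusted p = 0.0021), *WRKY33* (log2 fold change 0.95, adjusted p = 0.00294) and *WRKY25* (log2 fold change 0.66, adjusted p = 0.0111). *WRKY46*, *WRKY53*, *WRKY54*, *WRKY70* and *WRKY75* were not called within the slide. Of the other WRKY loci, 7 were called higher and 3 lower in that fit. In that fit 8.12% of all loci were called higher and 7.57% lower, so the gain in calls was shared by the whole array, and the lone *bli-1* array was assumed to vary like those of Col-0. Leaving out *bli-1* replicate 1 likewise gave 5 genes called higher, where 7.51% of all loci were called higher and 6.47% lower. Leaving out *bli-1* replicate 2, Col-0 replicate 1 or Col-0 replicate 2 gave 0 calls among the 10 genes and 0 on the whole array.

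**Figure D3:**
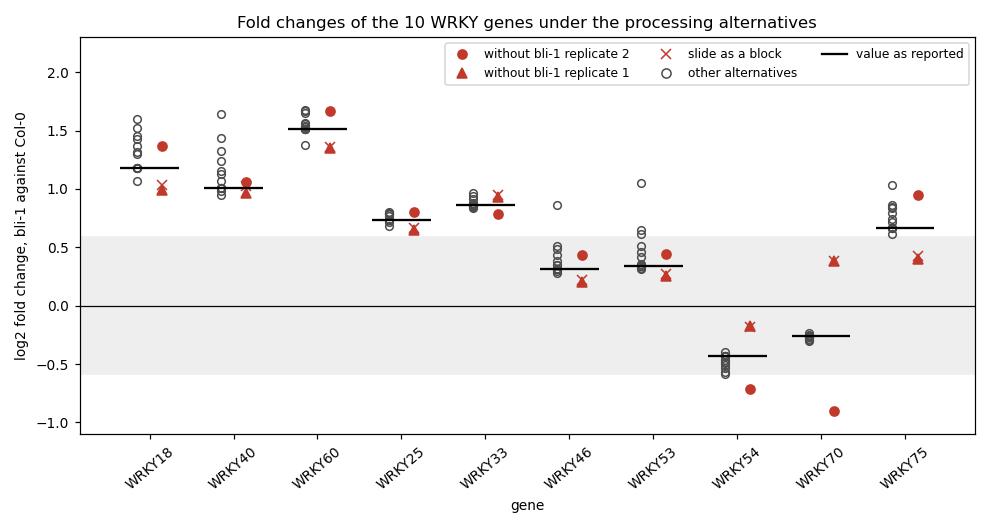
Log2 fold change of *bli-1* against Col-0 (y axis) for each of the 10 WRKY genes (x axis) as reported (black lines), under the fits that rest on 1 *bli-1* replicate (red symbols) and under the other processing alternatives (open circles). *WRKY60* stayed between 1.35 and 1.67, and *WRKY70* ranged from -0.91 to 0.39.

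The reference annotation holds 67 loci with a WRKY symbol, and 65 of them were tested, since *WRKY4* and *WRKY61* had no matched probe. Among the 55 others, 0 were called by limma, 7 were at least 1.5-fold higher (4.93% of all loci) and 1 was at least 1.5-fold lower (3.83% of all loci), and the same numbers had an unadjusted p below 0.05 together with that fold. Their median log2 fold change was 0.07, beside 0.70 for the 10 genes described here. The *bli-1* arrays lay above Col-0 without overlap for 16 of these 55 loci and below for 7, where 22.7% and 24.1% of all loci did so.

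By group, the median log2 fold change was 1.18 in subgroup IIa, which has no other member, 0.08 over 11 tested loci of group I, 0.17 over 18 of IIc and -0.07 over 12 of group III. The group I factors *WRKY25* and *WRKY33* lay well above the middle of their own group. Of the 8 group III loci outside the 10 genes, none changed at least 1.5-fold, and their log2 fold changes were between -0.15 and 0.23. Only 4 of these 8 loci (*WRKY38*, *WRKY41*, *WRKY55* and *WRKY62*) were well above background on all 4 arrays and 2 on none, and the offset holds dim loci near 0. These 4 loci alone spanned the same range. However, *WRKY41*, *WRKY55* and *WRKY62* were themselves dim, with mean log2 signals of 6.55, 6.69 and 6.57 in Col-0, beside 7.27 for *WRKY53*. The range therefore cannot show how far the offset narrowed the values. *WRKY46*, *WRKY53*, *WRKY54* and *WRKY70* lay outside this range by a small margin, and this was not tested.

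**Figure D4:**
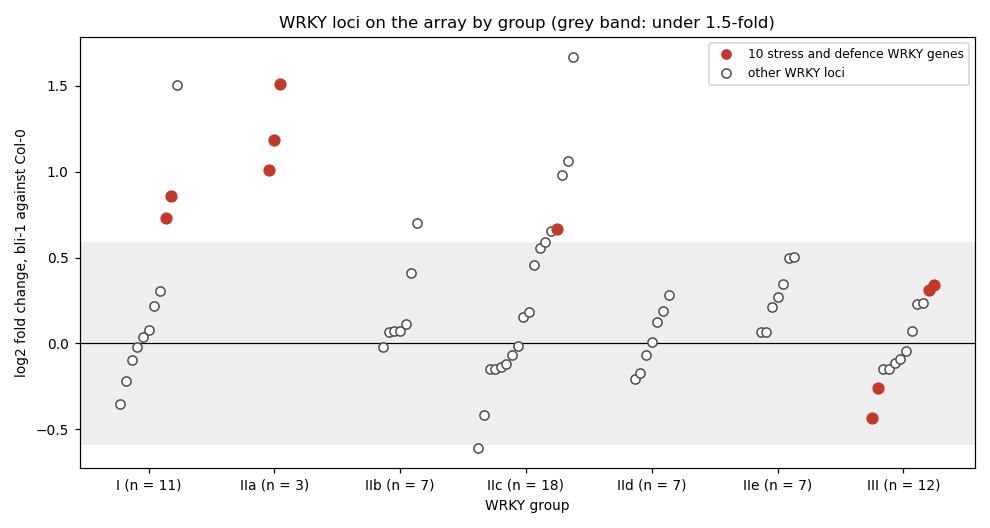
Log2 fold change of *bli-1* against Col-0 (y axis) of the 65 tested WRKY loci by WRKY group (x axis), with the 10 stress and defence genes as filled red points and the other 55 loci as open points. With the processing used here, all 3 loci of subgroup IIa lie at 1.01 or higher, whereas those of group III lie within 1.5-fold of Col-0.

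Among WRKY loci outside the 10 and well above background on all 4 arrays, the highest fold changes were those of *WRKY45* (AT3G01970, subgroup IIc), a factor of phosphate uptake, and *WRKY26* (AT5G07100, group I), which acts in heat tolerance together with WRKY25 and WRKY33. *WRKY45* had log2 signals of 9.53 and 9.58 in Col-0 against 11.33 and 11.12 in *bli-1*, giving a log2 fold change of 1.67 (SE 0.14, limma adjusted p = 0.0621). *WRKY26* had log2 signals of 8.99 and 9.07 in Col-0 against 10.43 and 10.64 in *bli-1*, giving a log2 fold change of 1.5 (SE 0.14, limma adjusted p = 0.07). These 2 loci therefore changed about as much as *WRKY60*. *WRKY28*, *WRKY47* and *WRKY57* followed with log2 fold changes of 0.98, 0.70 and 0.65, and the lowest values were -0.61 for *WRKY51*, -0.42 for *WRKY43*, -0.35 for *WRKY19*, -0.22 for *WRKY3* and -0.21 for *WRKY74*.

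Likeness of pattern was measured as the root mean square difference of log2 signals over the 4 arrays, after each gene was centred on its own mean, against 45 other WRKY loci well above background on all 4 arrays. *WRKY40* was closest to *WRKY28* (0.0379 log2 units), which was also the nearest to *WRKY33* (0.0668) and *WRKY18* (0.185). *WRKY60* was nearest to *WRKY45* (0.131), *WRKY25* to *WRKY57* (0.105) and *WRKY75* to *WRKY47* (0.0938). For *WRKY46* (0.0581) and *WRKY53* (0.0613) the nearest locus was *WRKY35*. *WRKY54* was nearest to *WRKY38* (0.204), and *WRKY70* was nearest to *WRKY55* at 0.337, the poorest match of the 10. With 4 arrays, such likeness mainly reflects the difference between genotypes and the gap between the *bli-1* replicates.

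Genes known to act before, with or after these factors were examined as 33 genes in 6 lists. Of them 0 were called by limma, 6 were higher and 1 lower at an unadjusted p below 0.05 and at least 1.5-fold (3.01% and 2.98% of all loci), and the median log2 fold change was 0.10. All 8 listed genes of MAP kinase cascades in defence (*MEKK1*, *MKK1*, *MKK2*, *MKK4*, *MKK5*, *MPK3*, *MPK4* and *MPK6*) stayed within 1.5-fold, with log2 fold changes between -0.06 and 0.21. *MPK3* was fitted on 3 arrays, since its spot was marked as an outlier in Col-0 replicate 1. The median of these 8 genes was 0.09, beside 0.73 for *WRKY25* and 0.86 for *WRKY33*. These are transcript levels, and the activity of the kinases was not measured.

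Of the VQ proteins, small partners that bind group I WRKY factors, *SIB1* and *SIB2* differed in opposite directions. *SIB1* had log2 signals of 9.60 and 9.43 in Col-0 against 10.19 and 10.56 in *bli-1*, giving a log2 fold change of 0.86 (SE 0.18, limma adjusted p = 0.233). *SIB2* had log2 signals of 8.19 and 7.79 in Col-0 against 7.33 and 6.65 in *bli-1*, giving a log2 fold change of -1.01 (SE 0.28, limma adjusted p = 0.350). SIB1 and SIB2 are close relatives that both stimulate binding of DNA by WRKY33, so the partners of WRKY33 did not move as a pair. *MKS1*, which joins MPK4 to WRKY33, was at -0.05 and was well above background on 3 arrays.

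Of 6 genes for immune receptors, their kinases and the oxidase of the oxidative burst, the median was 0.39. Among them *FRK1*, a receptor kinase gene widely used as a marker of early pattern-triggered responses and a target of WRKY factors, had log2 signals of 6.97 and 7.12 in Col-0 against 8.34 and 8.32 in *bli-1*. Its log2 fold change was 1.28 (SE 0.13, limma adjusted p = 0.0788). *FLS2*, the flagellin receptor, was higher by 0.87 (SE 0.14, limma adjusted p = 0.159), while *BIK1* was at 0.54, *CERK1* at 0.24, *RBOHD* at -0.20 and *BAK1* at -0.25. For camalexin synthesis, the pathway controlled by WRKY33, *PAD3*, which encodes the last enzyme, had log2 signals of 8.47 and 8.0 in Col-0 against 8.82 and 9.56 in *bli-1*. This was a log2 fold change of 0.95 (SE 0.31, limma adjusted p = 0.407), slightly above the 0.86 of *WRKY33* but with a wider spread between replicates. *CYP79B2* was at 0.54, *CYP71A12* at 0.32 and *CYP79B3* at -0.10. *CYP71A13* was at 0.41, with both of its probes well above background on only 2 arrays and at least 1 probe on 3 arrays, and its near-identical neighbour *CYP71A12* may share its probes' signal.

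In the salicylic acid branch, in which WRKY46, WRKY53, WRKY54 and WRKY70 act, the genes of synthesis and signalling lay within 1.5-fold, with *SAG101* at 0.39, *ICS1* at 0.23, *NPR1* at 0.12, *EDS1* at 0.10, *PAD4* at 0.02 and *PBS3* at 0.01. The pathogenesis-related genes that serve as its markers were not uniform. *PR2* had log2 signals of 6.89 and 7.62 in Col-0 against 9.57 and 10.31 in *bli-1*, giving a log2 fold change of 2.68 (SE 0.36, limma adjusted p = 0.118). *PR1* had log2 signals of 7.46 and 6.18 in Col-0 against 8.18 and 9.82 in *bli-1*, giving a log2 fold change of 2.18 (SE 0.68, limma adjusted p = 0.397), and it was well above background on 3 arrays. *PR5* was at -0.15. Both *PR1* and *PR2* were higher in *bli-1* replicate 2 than in replicate 1, which lay on another slide. Among the WRKY genes of this branch, *WRKY54* and *WRKY70* were also higher in replicate 2, whereas *WRKY46* and *WRKY53* were higher in replicate 1. The abscisic acid factor genes *ABI4* and *ABI5*, which are targets of subgroup IIa, were both at -0.02, and *ABI4* was well above background on 1 array only.

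**Figure D5:**
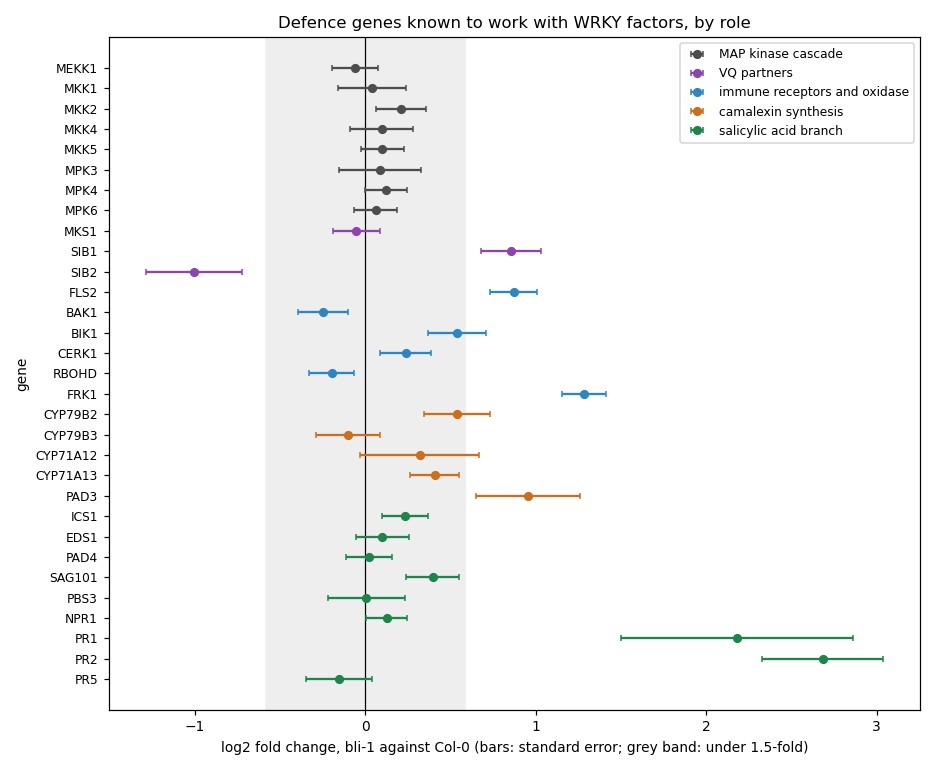
Log2 fold change of *bli-1* against Col-0 with its standard error (x axis) for 31 genes that act before, with or after the WRKY factors (y axis), colored by role, with a grey band for changes under 1.5-fold. The 8 MAP kinase cascade genes lie near 0, and *PR1*, *PR2* and *FRK1* have the highest values.

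Of the 20 tested loci next to the 10 genes on their chromosomes, 1 differed at least 1.5-fold, and it was lower. Among all loci, 4.93% were at least 1.5-fold higher and 3.83% lower, so 1 locus does not set these neighbours apart. AT4G31805, beside *WRKY18*, had log2 signals of 8.03 and 7.96 in Col-0 against 6.66 and 6.33 in *bli-1*, giving a log2 fold change of -1.5 (SE 0.16, limma adjusted p = 0.085). *WRKY55*, the neighbour of *WRKY54*, was at 0.23 and overlapped between genotypes.

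In whole seedlings, fewer cells of a type and less RNA per cell cannot be told apart. The summed linear signal of the 6 shoot genes was 536444 and 570777 in Col-0 against 542301 and 555622 in *bli-1*, and 3 of the 6 were higher and 3 lower. That of the 8 root genes was 18903 and 17119 in Col-0, 25028 in *bli-1* replicate 1 and 12670 in *bli-1* replicate 2. This sum rests mostly on the bright genes *PHT1;1* and *CASP1*, with log2 signals of 13.67 and 13.01 in *bli-1* replicate 1. Of the 8 root genes 7 were lower in *bli-1* by their means, where 49.3% of all loci were above 0. Only 4 of them lay below Col-0 without overlap, as did 24.1% of all loci, and 4 overlapped. The median difference of the 8 root genes was -0.40 on the log2 scale. This median was -0.05 for *bli-1* replicate 1 and -0.92 for replicate 2, while that of the 10 WRKY genes was 0.78 and 0.54. The part of tissue makeup in the WRKY values was not tested.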

How the data were processed

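The authors deposited median spot and local background intensity values read by Agilent Feature Extraction 11.0.1.1, without normalization between arrays. With limma 3.58.1 in R 4.3.3, normexp with an offset of 50 served as background correction, a choice made here because the methods do not name one. Control spots were left out, outlier spots were set to missing, and log2 values were quantile normalized. RefSeq accessions were matched to loci of TAIR10.1, and values were averaged first by probe, then by gene. The genotypes were fitted on all 4 arrays by limma (lmFit, then eBayes), with p-values adjusted after Benjamini and Hochberg over 34290 genes and transcripts. A gene was called at an adjusted p below 0.05 and at least a 1.5-fold change. Raw intensities are single-spot values, and each SE of a single probe comes from a fit of probes. The fit was also run on simulated data with independent noise, equal spread in both genotypes and no slide effect. That run cannot show how the fit deals with the slide or the unequal replicates of these arrays.

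The members, the lists, the WRKY groups (background knowledge) and the tests were chosen with earlier results of these data known. Named were the 10 genes, the 5 largest rises and falls among other WRKY loci that exceeded background on each array, the genes of the lists, *BLI*, and neighbouring loci that changed at least 1.5-fold. Other WRKY loci are named only as nearest in pattern or without a probe, and *WRKY55* also as a neighbour. In addition, 4 group III loci well above background on every array were named after their values were seen. Promoter motifs were not analysed here. Alternatives changed the background correction, the normalization, filters, the eBayes options, blocks and the arrays used.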

Additional observations from a re-analysis of the deposited data

How the results depend on the processing

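Under 16 alternatives the fold changes of 9 of the 10 genes kept their direction, and *WRKY70* turned to 0.39 with the slide as a block and ranged from -0.91 to 0.39 with 1 array left out (0.39 without *bli-1* replicate 1). The calls depended on the setting, and the cause was not tested. Of all loci, 0 were called higher and 0 lower with offset 0, local background subtracted, the scanner software's processed signal (quantile or 75th percentile scaling), 75th percentile scaling after normexp or the replicate block, 8 and 1 with offset 16, 75 and 24 without dim probes, 73 and 31 with trend and robust options, 2063 and 1924 with the slide as a block, and 765 and 756 at an unadjusted p. With 1 array left out, loci called ranged from 0 to 1908 higher and from 0 to 1643 lower. Of the 10 genes, 1 (*WRKY60*) was called with trend and robust options, 5 with the slide as a block, 6 at an unadjusted p and 0 to 5 with 1 array left out. Other WRKY loci called higher numbered 2 without dim probes, 2 with trend and robust options, 7 with the slide as a block, 7 at an unadjusted p and 0 to 6 with 1 array left out, and those called lower 3, 1 and 0 to 3 in the last 3 settings. List genes called higher numbered 1 without dim probes, 6 with the slide as a block, 6 at an unadjusted p and 0 to 6 with 1 array left out, and those called lower 1, 1 and 0 to 1 in the last 3 settings. With the processed signal scaled to the 75th percentile, the median was 0.95 for the 10 genes, 0.18 for all loci, 0.89 for the VQ partners and 1.05 for *ABI4* and *ABI5*, the last pair of medians having turned in sign. With quantile normalization of that signal the VQ partners' median was -0.99. The median of the 10 genes was 0.53 to 0.79 with 1 array left out. At least 1.5-fold higher were 6 of the 10 genes as reported and 8 with the processed signal scaled to the 75th percentile. This number was 7 with quantile normalization of the processed signal, and 7 with the brightest probe of each gene. In the other direction, *WRKY75* fell under 1.5-fold, to 0.42 with the slide as a block and to 0.40 without *bli-1* replicate 1. At least 1.5-fold lower was 1 of the 10 genes with the processed signal and quantile normalization, and 0 to 2 with 1 array left out. The labels do not pair replicates that share a number, whose deviations around each genotype's mean had a correlation of 0.07, and the replicate block called 0 of the 10 genes. The log2 fold changes of *WRKY46* and *WRKY53* ranged from 0.20 to 0.86 and from 0.25 to 1.05, highest in each case with the processed signal scaled to the 75th percentile.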
